A study of Mus musculus with 8 samples.

Results

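The Dlk1-Dio3 domain is a stretch of mouse chromosome 12 in which each parental copy expresses its own set of genes. It was examined here through 7 genes, chosen by name as the rows of the expression files called Dlk1, Meg3, Rtl1, Rian, Mirg, Dio3 and Begain. Each name had 1 row, so the 7 genes were 7 of 22878 rows present in every library, and all 7 were among the 13693 rows tested. On the maternal copy, Meg3 (also called Gtl2), Rian and Mirg give long non-coding RNAs, which carry small nucleolar RNAs and microRNAs in their introns and exons. On the paternal copy, Dlk1, Rtl1 and Dio3 code for proteins. The choice between both sets is set in the germline by DNA methylation of an intergenic control region between Dlk1 and Meg3. In mouse iPSCs the domain is known for the silencing of Meg3 in lines of poor developmental potential. The iPSC lines followed here were not of that kind by the study's strictest test, tetraploid complementation. The study reports that every one of them gave adult mice grown wholly from iPSCs. The files hold 1 value per gene and library, so the parental copies were not resolved, and the allele of a gene is given below as background.

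RNA had been sequenced in 8 libraries of 5 lines. R1 is a mouse ESC line with 2 libraries, and the other lines were secondary iPSCs, grown from somatic cells of 8-week-old all-iPSC mice after doxycycline had switched on Oct4, Sox2, c-Myc and Klf4 transgenes. Line 16-6 came from hematopoietic progenitors of the bone marrow and line 32 from adipocyte progenitors, with 2 libraries each. S8 came from epidermal cells and T2 from the stomach lining, with 1 library each. Each iPSC line was a single line, so a tissue of origin and a line cannot be told apart. The study states that the secondary iPSCs share their genome and the places where the transgenes were inserted. R1 was the only ESC line. A difference of all iPSC lines from R1 therefore cannot be told apart from a feature of R1 or of that shared background. All cells, R1 included, were cultured with LIF and serum on mitomycin C-treated fibroblasts from ICR embryos, and these feeder cells are a possible second source of RNA. GEO's tissue label reads embryo for every library, while the study describes cultured cells. All 10 pluripotency markers had an FPKM of at least 1 in all 8 libraries, but their levels were not equal between the lines, as given beside Dlk1. The confidence limits of the files implied 15.5 to 16.7 fragments per library in units of 1000000. The study lists many more mapped reads, at a lower mapped share, for S8 and T2 than for the other lines, so this difference in sequencing and the lines S8 and T2 cannot be told apart.

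Levels are in FPKM, fragments per kilobase of transcript and 1000000 mapped fragments, after division of every deposited value by 1 common constant. Differences are in log2(FPKM + 1) and came from limma, and a gene was past the threshold with an adjusted p below 0.05 and a log2 difference of at least 1 in size. The pseudocount of 1 makes these differences smaller than the ratio of the FPKM for genes near 1 FPKM.

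In the mm9 coordinates of the files, Begain lay at chr12:110270392-110306427 on the minus strand and Dlk1 at chr12:110691033-110701546 on the plus strand. Meg3 followed at chr12:110779206-110809939 on the plus strand. Rtl1 lay on the minus strand at chr12:110828379-110833613. Rian and Mirg lay on the plus strand at chr12:110842155-110899921 and chr12:110973191-110987667. Dio3 closed the domain at chr12:111517440-111519307. The distance from Begain to the end of Dio3 was 1248.9 kb, and that from Dlk1 to the end of Dio3 was 828.3 kb.

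Promoters were read from RefSeq for GRCm38.p6, with 250 bases before and 50 after the start, and 6 of the 7 genes had an entry. Those of Meg3, Dlk1 and Dio3 are shown because these 3 genes followed different patterns across the lines. Capitals mark TGCCGC on either strand, the letters that ZFP57, a zinc finger protein that keeps imprints, binds when they are methylated. In mm9 the same letters were found at chr12:110778956-110779255 for Meg3, chr12:110690783-110691082 for Dlk1 and chr12:111517190-111517489 for Dio3, all on the plus strand.
Meg3: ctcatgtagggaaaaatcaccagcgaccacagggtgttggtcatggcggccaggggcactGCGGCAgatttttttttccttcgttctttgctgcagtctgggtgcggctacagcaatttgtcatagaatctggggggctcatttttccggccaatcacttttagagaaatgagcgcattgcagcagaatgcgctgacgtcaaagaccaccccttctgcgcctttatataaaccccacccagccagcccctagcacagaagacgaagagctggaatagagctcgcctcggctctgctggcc
Dlk1: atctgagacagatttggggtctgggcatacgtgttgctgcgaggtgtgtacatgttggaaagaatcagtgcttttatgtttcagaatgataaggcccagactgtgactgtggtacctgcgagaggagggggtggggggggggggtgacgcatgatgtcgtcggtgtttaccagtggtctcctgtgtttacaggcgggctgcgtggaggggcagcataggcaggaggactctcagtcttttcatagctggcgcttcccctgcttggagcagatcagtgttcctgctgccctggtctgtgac
Dio3: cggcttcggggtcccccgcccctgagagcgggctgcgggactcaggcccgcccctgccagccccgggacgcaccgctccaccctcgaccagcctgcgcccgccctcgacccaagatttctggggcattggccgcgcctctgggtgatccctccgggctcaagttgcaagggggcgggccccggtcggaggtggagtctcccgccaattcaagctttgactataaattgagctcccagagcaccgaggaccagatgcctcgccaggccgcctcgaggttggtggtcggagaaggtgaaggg
RefSeq lists a second Meg3 promoter at a start inside the gene, which held neither motif searched here and 1 CG pair, so the following is for the one shown. It held TGCCGC once, 190 bases before the start, and the windows of Dlk1 and Dio3 did not hold these letters. Of 32851 promoters of the same length, 11.6% held the motif. The letters TATAAA, searched on both strands and held by 13.6% of promoters, occurred in the Meg3 window as 2 overlapping matches and in the Dio3 window as 1 match, both upstream of the start. The Dio3 window held 25 CG pairs, the Meg3 window 13 and the Dlk1 window 9, against a median of 7 over all promoters. The window at the annotated start of Rian held 0 CG pairs and that of Mirg 10.

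RefSeq places 114 mature microRNAs between Dlk1 and Dio3, with 104 distinct seeds (bases 2 to 8, which pair with a target). Exact matches in mm9 put 13 of them inside the coding exon of Rtl1, of which 11 were on the strand opposite to Rtl1. One microRNA of each of the 6 antisense hairpins is shown, seed in capitals, since reads from these RNAs and from Rtl1 fall on the same bases.
miR-431-5p: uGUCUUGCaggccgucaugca
miR-433-3p: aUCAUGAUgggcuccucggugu
miR-127-3p: uCGGAUCCgucugagcuuggcu
miR-434-3p: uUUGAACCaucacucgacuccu
miR-432: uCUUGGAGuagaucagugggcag
miR-136-5p: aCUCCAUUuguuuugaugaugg
They lay at chr12:110828669-110828689 (miR-431-5p), chr12:110829991-110830012 (miR-433-3p), chr12:110831098-110831119 (miR-127-3p), chr12:110832775-110832796 (miR-434-3p), chr12:110833216-110833238 (miR-432) and chr12:110833541-110833562 (miR-136-5p), all on the plus strand. Their 6 seeds differed from each other. Of the 104 seeds, 9 were shared by a pair of microRNAs and none by more, as in the following examples, printed with the partners next to each other.
miR-379-5p: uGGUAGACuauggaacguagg
miR-1193-5p: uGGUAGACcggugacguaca
miR-410-5p: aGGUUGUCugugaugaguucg
miR-494-5p: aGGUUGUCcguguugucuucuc

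Meg3 is a long non-coding RNA known as a growth suppressor. It was among the more abundant RNAs of every line, above at least 91.6% of all rows. In R1 it reached 151.6 and 158.9 FPKM, and in 16-6 214.3 and 218.1 FPKM. In 32 it stood at 72.7 and 73.9 FPKM, in S8 at 94.7 FPKM and in T2 at 143.4 FPKM. The 16-6 libraries were the highest, T2 lay close to R1, and the 32 libraries were the lowest, with no overlap between the replicated lines. Relative to the R1 mean, Meg3 stood at 139.2% in 16-6, 92.4% in T2, 61.0% in S8 and 47.2% in 32. The difference of 32 from R1 was -1.07 ± 0.0385 (SE) in log2(FPKM + 1), which passed the threshold (limma, adjusted p = 5.35e-05). The difference of 16-6 was 0.48 ± 0.0385 and that of S8 -0.71 ± 0.0472, both below the fold minimum (limma, adjusted p = 0.000655 and 0.000246). T2 and R1 were neighbours in the order of levels that did not differ beyond the spread between replicates (-0.11 ± 0.0472, limma, adjusted p = 0.0941).

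Rian hosts clusters of C/D box small nucleolar RNAs and microRNAs downstream of Rtl1. In R1 it reached 179.5 and 189.3 FPKM, and in 16-6 274.4 and 286.8 FPKM. In 32 it stood at 120.8 and 131.5 FPKM, in S8 at 95.4 FPKM and in T2 at 200.5 FPKM. On the FPKM scale Rian thus followed Meg3 in having its peak in 16-6, but its lowest line was S8 instead of 32. The implied fragments gave another order of these 2 lines, with 4010 in S8 against 3511 and 3842 in 32, as 1 FPKM of Rian stood for 42.0 and 41.5 fragments in S8 and T2 and for 29.1 to 32.7 in the other libraries. The difference of S8 from R1 was -0.94 ± 0.0715 (SE), just short of the fold minimum (limma, adjusted p = 0.000342). The differences of 16-6 and 32 from R1 were 0.60 ± 0.0584 and -0.54 ± 0.0584 (limma, adjusted p = 0.00108 and 0.0012). On the FPKM scale, T2 and R1 did not differ beyond the spread between replicates (0.12 ± 0.0715, limma, adjusted p = 0.204). In implied fragments, T2 at 8310 was above R1 at 5527 and 6189, and S8 lay less far below R1 than in FPKM. The differences of S8 and T2 from R1 thus depend on the scale. Rian was higher in T2 than in S8 by 1.06 ± 0.0826 (limma, adjusted p = 0.00261).

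Mirg, the most distal non-coding gene, contains a large cluster of microRNA hairpins. It was found at 17.9 and 19.4 FPKM in R1, 27.7 and 22.7 FPKM in 16-6, 15.3 and 19.8 FPKM in 32, 15.6 FPKM in S8 and 20.5 FPKM in T2. The 16-6 libraries were the highest, the other lines lay close together, and the R1 libraries fell between the 32 libraries. None of the 4 iPSC lines passed the threshold against R1, with log2 differences from -0.24 ± 0.185 in S8 to 0.41 ± 0.151 in 16-6 (limma, adjusted p = 0.3 and 0.0692). No pair of neighbours in its order of levels (16-6, T2, R1, 32, S8) differed beyond the spread. Further apart in this order, Mirg was lower in 32 than in 16-6 by -0.50 ± 0.151 (limma, adjusted p = 0.0359). In S8 it was lower than in 16-6 by -0.65 ± 0.185, and both differences were below the fold minimum. Mirg rested on 264 to 552 fragments per library, against 1927 to 5930 for Meg3.

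The 3 non-coding genes did not keep the same proportions in every line. Rian to Meg3 was 1.01 in S8, 1.18 and 1.19 in R1, 1.28 and 1.31 in 16-6, 1.40 in T2, and 1.66 and 1.78 in 32. Mirg to Meg3 was 0.104 to 0.129 in R1 and 16-6, 0.143 in T2, 0.165 in S8, and 0.21 and 0.268 in 32. In FPKM, the ratios of both downstream genes to Meg3 were therefore the highest of the 5 lines in 32, where Meg3 was lowest. In implied fragments this held for Mirg to Meg3, at 0.161 and 0.199 in 32, but not for Rian to Meg3, which was 2.01 in T2 against 1.82 and 1.93 in 32. These ratios were not tested.

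**Figure D1:**
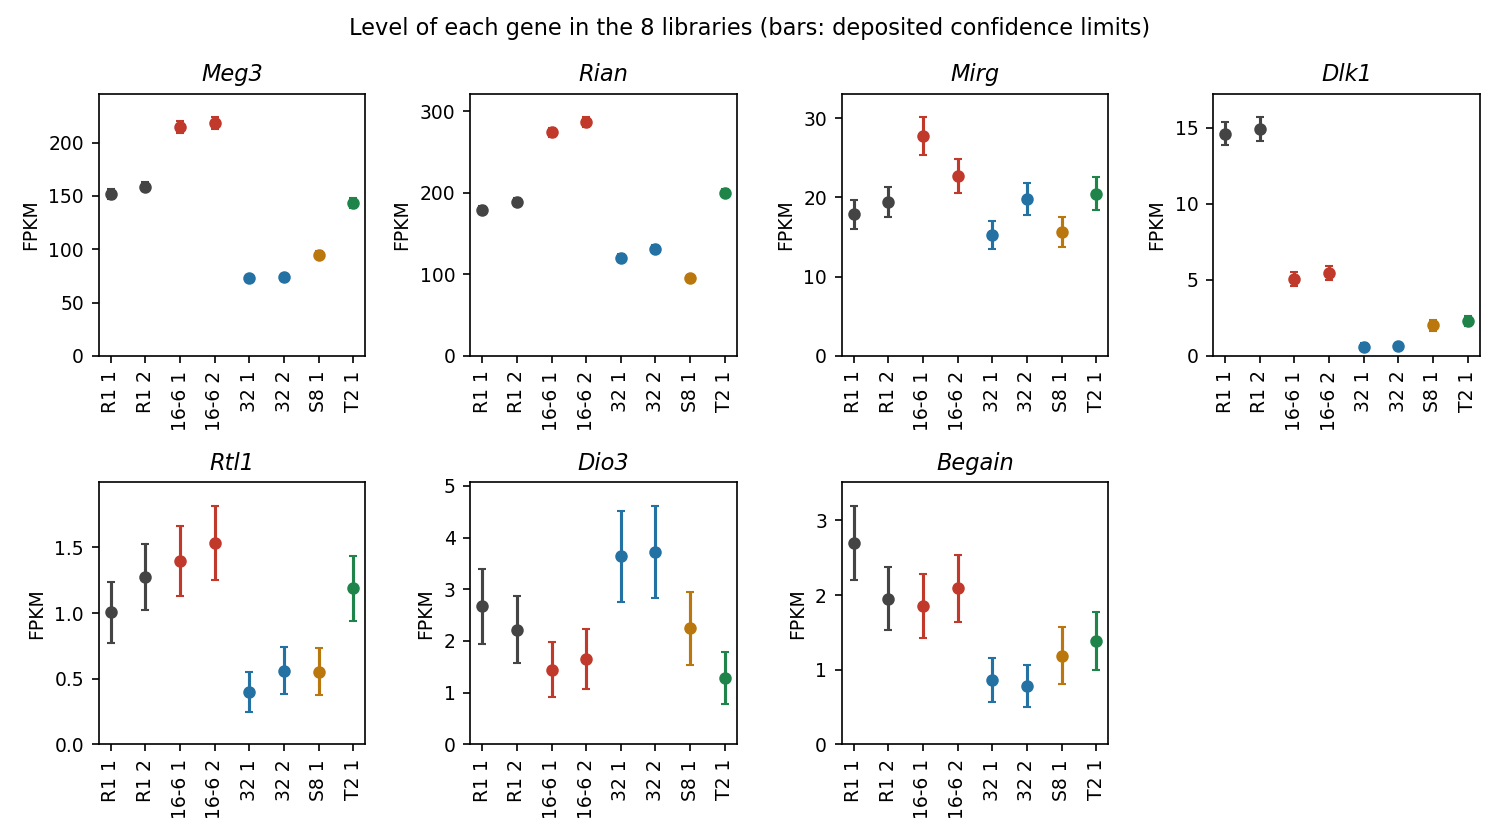
FPKM of each of the 7 genes in the 8 libraries, with the confidence limits of the files as bars and 1 linear axis from 0 per gene. Meg3 and Rian were highest in 16-6, Dlk1 was highest in R1 at 14.6 and 14.9 FPKM, and Dio3 was highest in 32 at 3.63 and 3.72 FPKM.

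Dlk1 codes for a transmembrane ligand of the Delta family that holds back the differentiation of preadipocytes. In R1 it reached 14.6 and 14.9 FPKM, on 1514 and 1411 fragments. In 16-6 it stood at 5.03 and 5.47 FPKM, in S8 at 2.03 FPKM and in T2 at 2.30 FPKM. In 32 it stood at 0.609 and 0.634 FPKM, on only 31.6 and 33.1 fragments. Every iPSC library lay below both R1 libraries, and the mean FPKM of R1 was 23.7 times that of 32. Implied fragments were 464 and 529 in 16-6, 129 in S8 and 180 in T2. Thus 1 FPKM of Dlk1 stood for fewer fragments in 32, S8 and T2 than in R1 and 16-6. The order of lines was the same in fragments, but the ratios between them were not those of FPKM. As a percent of the R1 mean, Dlk1 was 35.6% in 16-6, 15.6% in T2, 13.8% in S8 and 4.22% in 32. All 4 lines passed the threshold against R1, but they share a genetic background and the R1 libraries, so these are not 4 independent results. The log2 differences were -1.33 ± 0.0643 (SE) in 16-6 and -3.28 ± 0.0643 in 32 (limma, adjusted p = 0.000191 and 1.3e-05). They were -2.38 ± 0.0787 in S8 and -2.25 ± 0.0787 in T2 (limma, adjusted p = 7.04e-05 and 0.000119). T2 and S8, with 1 library each, did not differ beyond the spread between replicates of the other lines (0.13 ± 0.0909, limma, adjusted p = 0.33). All other neighbours in the order R1, 16-6, T2, S8, 32 had an adjusted p below 0.05. Among all rows tested, the range of Dlk1 over the line means, 3.28, stood at the 97.5th percentile. The 10 pluripotency markers differed from R1 in both directions. Their median log2 difference was -0.65 in 16-6, 0.09 in 32, 0.06 in S8 and -0.32 in T2. Of the 10, 2 passed as lower than R1 in 16-6 and 1 in 32, and 3 passed as lower in S8 and in T2, with 2 and 1 as higher, against 7.11%, 9.77%, 16.7% and 10.5% of all rows. Zfp42 (Rex1), a marker of naive pluripotency named after its values were seen, was lower in all 4 lines, at -1.92 ± 0.0464 in 16-6, -1.02 ± 0.0464 in 32, -2.18 ± 0.0568 in S8 and -2.53 ± 0.0568 in T2 (limma, adjusted p = 6.43e-05, 0.000104, 4.92e-05 and 4.65e-05). The order of Zfp42 differed from that of Dlk1, since 32 was its highest iPSC line, and the part of such differences between the cells in the Dlk1 result was not tested.

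Rtl1, a retrotransposon-derived gene needed for the fetal capillaries of the placenta, was low in all lines. It stood at 1.00 and 1.27 FPKM in R1, 1.39 and 1.53 FPKM in 16-6, 0.402 and 0.561 FPKM in 32, 0.552 FPKM in S8 and 1.19 FPKM in T2. The 16-6 libraries were the highest, and the 32 libraries and S8 were the lowest and lay together. No line passed the threshold against R1, with differences of 0.21 ± 0.103 (SE) in 16-6, -0.53 ± 0.103 in 32, -0.46 ± 0.127 in S8 and 0.04 ± 0.127 in T2 (limma, adjusted p = 0.148, 0.00873, 0.0249 and 0.833). The order of lines was thus nearer to that of Meg3 than to that of Dlk1. Over the 8 libraries, the Pearson r of log2(FPKM + 1) was 0.97 between Rtl1 and Meg3 and 0.70 between Rtl1 and Dlk1. By r with Meg3, Rtl1 ranked only 150th of 13692 rows, so many rows outside the domain followed Meg3 more closely. The kit named in the labels was taken as one that does not keep the strand, and the strand setting of the counting is not given in the sources used here. Reads of Rtl1 and of the antisense RNA shown above may therefore be mixed in its value, which rested on only 28 to 118.6 fragments. The row 6430411K18Rik, at chr12:110829747-110831063 within Rtl1, stood at 2.09 and 3.35 FPKM in R1, 3.29 and 3.35 FPKM in 16-6, 1.73 and 1.33 FPKM in 32, 1.27 FPKM in S8 and 1.20 FPKM in T2.

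Dio3 codes for the deiodinase that inactivates thyroid hormone, and it had another order of lines than the other coding genes. It stood at 3.63 and 3.72 FPKM in 32, 2.67 and 2.22 FPKM in R1, 2.25 FPKM in S8, 1.45 and 1.65 FPKM in 16-6 and 1.28 FPKM in T2. The 32 libraries, which were lowest for Dlk1 and Meg3, were thus the highest for Dio3, without overlap with any other library. The difference of 32 from R1 was 0.44 ± 0.0922 (SE), and that of 16-6 was -0.43 ± 0.0922, both under the fold minimum (limma, adjusted p = 0.0106 and 0.013). T2 was lower than 32 by more than the fold minimum, with a difference of -1.04 ± 0.113 (limma, adjusted p = 0.00199). S8 and R1 did not differ beyond the spread between replicates (-0.08 ± 0.113, limma, adjusted p = 0.546). Dio3 rested on 26 to 70 fragments per library, and the confidence limits of 32 (2.75 to 4.52 FPKM in its first library) overlapped those of R1 (1.95 to 3.39 FPKM in its first library). The antisense row Dio3os was at 0.0337 to 0.165 FPKM in all libraries.

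Begain, a gene of the postsynaptic density at the proximal edge of the domain, is expressed from the paternal copy in part of its transcripts only. It stood at 2.70 and 1.95 FPKM in R1, 1.86 and 2.09 FPKM in 16-6, 0.860 and 0.785 FPKM in 32, 1.19 FPKM in S8 and 1.39 FPKM in T2. The R1 and 16-6 libraries overlapped, and the 32 libraries were the lowest. The difference of 32 from R1 was -0.86 ± 0.127 (SE), below the fold minimum (limma, adjusted p = 0.00343). No neighbouring lines in its order differed beyond the spread between replicates. Over the 8 libraries its Pearson r with Dlk1, its nearest neighbour among the 7 genes, was 0.94. By this r, Begain ranked 249th of 13692 rows, so many rows outside the domain followed Dlk1 more closely.

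**Figure D2:**
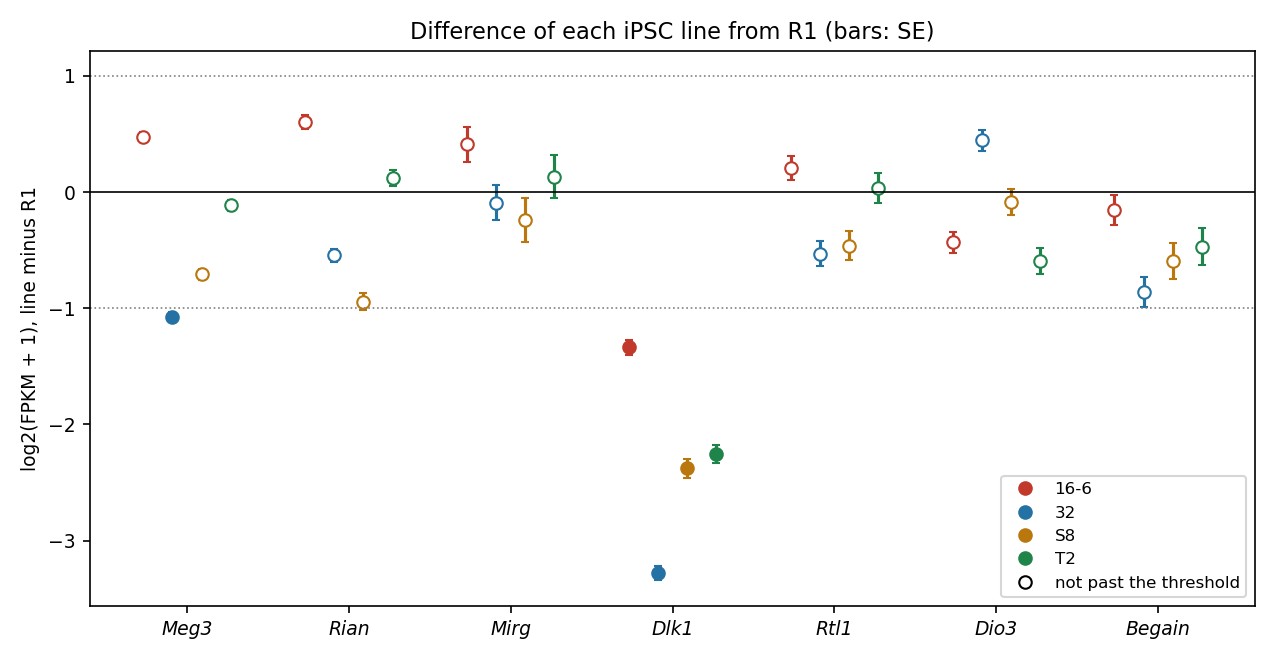
Difference of each iPSC line from R1 in log2(FPKM + 1) for the 7 genes, with the SE as bars. Filled points passed the threshold, open points did not, and dotted lines mark the fold minimum. Dlk1 was past it in all 4 lines and Meg3 in line 32 at -1.07.

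Counted over the 7 genes, the background of all rows has to be kept in view, since many rows passed the threshold between these lines. Against R1, 1 of the 7 genes passed in 16-6 (Dlk1), where 7.11% of all rows did. In 32, 2 passed (Dlk1 and Meg3) with 9.77% of all rows. In S8 and in T2, 1 passed (Dlk1) with 16.7% and 10.5% of all rows. For the mean of the 4 iPSC lines, 1 passed with 6.41% of all rows, and this was Dlk1 at -2.31 ± 0.0533 (SE, limma, adjusted p = 2.9e-05). The median log2 difference of the 7 genes was 0.21 in 16-6 and -0.54 in 32, against -0.03 and -0.02 over all rows. Counts of 1 or 2 among 7 genes are too small to be set apart from these shares. As the iPSC lines share a genetic background, their mean against R1 does not separate iPSCs from ESCs in general.

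Among the iPSC lines, Dlk1, Meg3 and Rian were all lower in 32 than in 16-6 (3 of 7 genes, 10.3% of all rows), by -1.95 ± 0.0643, -1.55 ± 0.0385 and -1.15 ± 0.0584 (limma, adjusted p = 2.87e-05, 1.19e-05 and 0.00011). The same 3 genes were lower in S8 than in 16-6 (17.3% of all rows), by -1.04 ± 0.0787, -1.18 ± 0.0472 and -1.55 ± 0.0715 (limma, adjusted p = 0.000335, 7.45e-05 and 9.47e-05). The Dlk1 call was lost with quantile normalization (-0.84) and without the second 16-6 library (-0.99). Both comparisons share the 16-6 libraries. Between T2 and 16-6, 0 of the 7 genes passed in limma (8.07% of all rows), while 3 had an unadjusted p below 0.05, as did 59.3% of all rows. Between S8 and 32, 0 passed in limma (11.8% of all rows), while 4 had an unadjusted p below 0.05, as did 65.3% of all rows. In both comparisons the adjusted p of these genes was below 0.05 as well, as for 52.4% and 60.8% of all rows. They missed only the fold minimum. Between T2 and 32, 2 passed (7.43% of all rows), with Dlk1 higher in T2 by 1.03 ± 0.0787 (limma, adjusted p = 0.000851) and Dio3 lower as given above. With quantile normalization this Dlk1 difference was 0.79 and no longer passed. Between T2 and S8, 1 passed, Rian (2.75% of all rows).

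**Figure D3:**
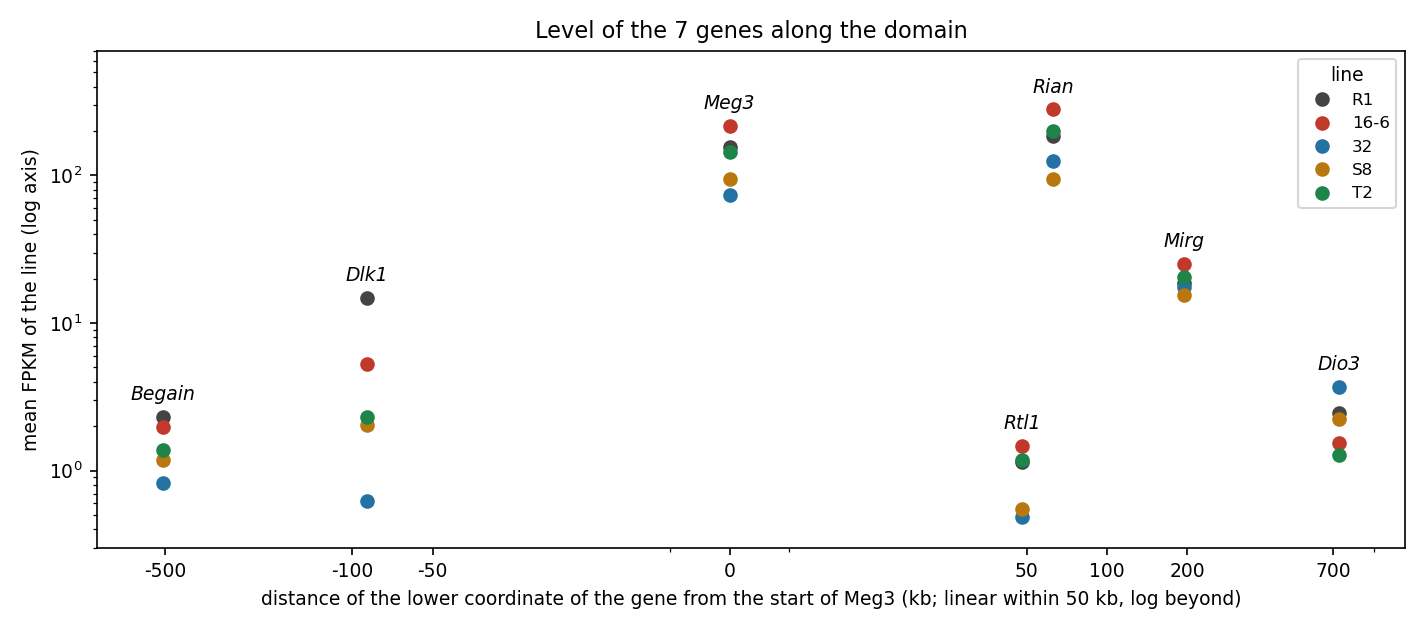
Mean FPKM of each line for the 7 genes, placed by the distance of their lower coordinate from the start of Meg3 (kilobases, linear within 50 kb and logarithmic beyond), on a logarithmic FPKM axis. Meg3 and Rian stood above the coding genes in every line, and the lines were spread most widely at Dlk1, over a ratio of 23.7.

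Set against each other, the non-coding genes of the maternal copy were above the coding genes of the paternal copy in every library. The mean log2(FPKM + 1) of Meg3, Rian and Mirg minus that of Dlk1, Rtl1 and Dio3 was 4.05 and 4.13 in R1, 5.19 and 5.02 in 16-6, 4.59 and 4.69 in 32, 4.43 in S8 and 5.07 in T2. All iPSC libraries thus had a larger gap than both R1 libraries on this scale, but after quantile normalization the gap of S8, 4.24, was below that of R1, 4.31. The gap came about in different ways. In 16-6 the non-coding mean was above that of R1 (6.90 and 6.84 against 6.33 and 6.41) and the coding mean below it (1.71 and 1.81 against 2.28 and 2.29). In 32 both means were below those of R1, at 5.72 and 5.89 for the non-coding and 1.13 and 1.20 for the coding genes. In S8 both were lower as well, at 5.74 and 1.31. In T2 the non-coding mean, 6.42, was level with that of R1, while the coding mean was 1.35. The ratio of Meg3 to Dlk1 FPKM was 10.4 and 10.7 in R1, 42.6 and 39.9 in 16-6, 46.7 in S8, 62.3 in T2, and 119.3 and 116.6 in 32. Within the coding set, the ratio of Dlk1 to Dio3 went from 5.47 and 6.71 in R1 through 3.48 and 3.31 in 16-6, 1.80 in T2 and 0.903 in S8 to 0.168 and 0.17 in 32. These values are descriptions with no test. With Rtl1 left out of the coding genes, as its reads may come from the antisense RNA, R1 kept the smallest gap at 3.49, against 4.09 to 4.96 in the iPSC lines. No gap was computed without Dlk1, the only gene of this coding set below R1 in every iPSC line. In 16-6, 32, S8 and T2, Rtl1 stood at 128.6%, 42.3%, 48.5% and 104.3% of the R1 mean, and Dio3 at 63.3%, 150.5%, 91.9% and 52.25%. In log2(FPKM + 1), Rtl1 differed from R1 by -0.53 in 32 and -0.46 in S8, and Dio3 by 0.44 and -0.08. The mean of the non-coding genes fell further below R1 than either gene in both lines. Without Dlk1, the gap of 32 and S8 would therefore be smaller than that of R1 on this scale. A larger gap in every iPSC line thus did not hold for the coding set without Dlk1.

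**Figure D4:**
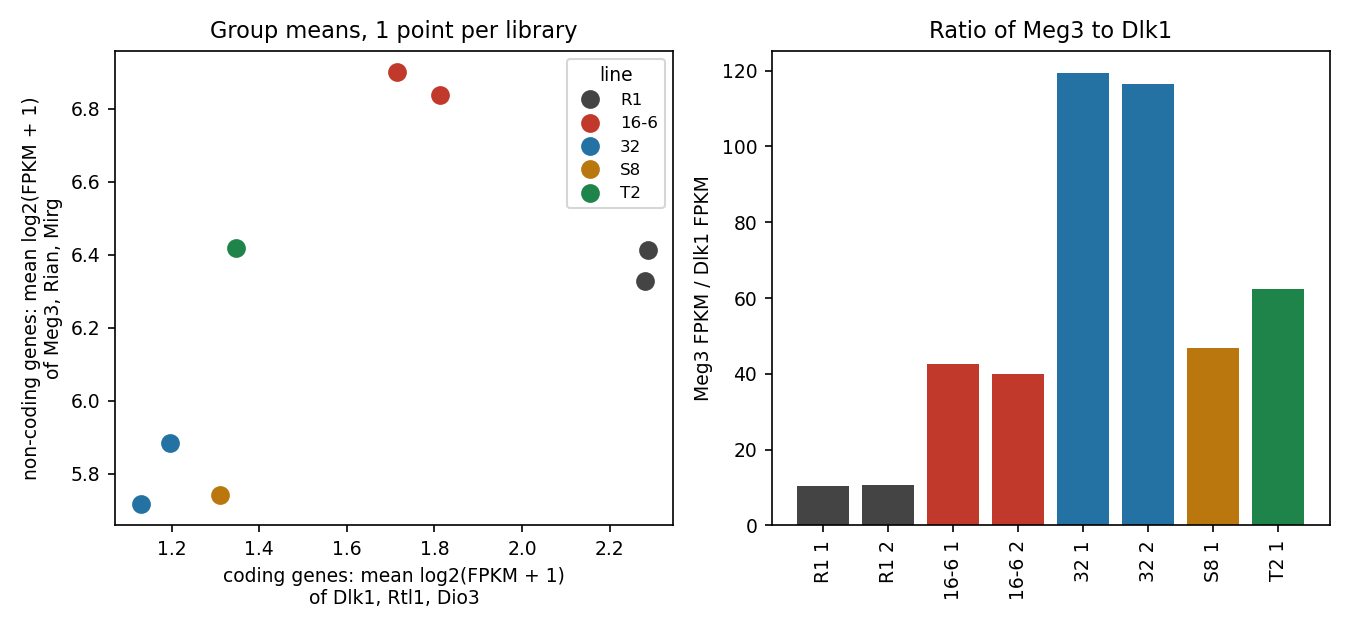
Left, mean log2(FPKM + 1) of the 3 non-coding genes against that of the 3 coding genes, 1 point per library. Right, ratio of Meg3 to Dlk1 FPKM as bars from 0, lowest in R1 at 10.4 and 10.7 and highest in 32 at 119.3 and 116.6.

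Genes that mark the feeder cells differed between the lines as well. The mean log2(FPKM + 1) of 20 fibroblast markers was 5.41 and 5.51 in R1, 6.18 and 6.19 in 16-6, 2.52 and 2.56 in 32, 4.01 in S8 and 4.45 in T2. Their summed FPKM ran from 393 and 401 in 32 through 799 in S8, 1118 in T2, and 1535 and 1664 in R1 to 3826 and 3858 in 16-6. No marker was at 0 in any library. Against R1, 17 of the 20 markers passed the threshold as lower in 32, 11 as lower and 1 as higher in S8, 10 as lower and 1 as higher in T2, and 9 as higher and 2 as lower in 16-6, where 9.77%, 16.7%, 10.5% and 7.11% of all rows passed in either direction. Between 32 and 16-6 all 20 were lower in 32. In a bulk library, fewer cells of a type and less RNA per cell cannot be told apart.

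The order of lines by Meg3 (16-6, R1, T2, S8, 32) was also the order by the mean of these markers. Of the 13692 other rows tested, the 5 whose log2(FPKM + 1) followed Meg3 most closely over the 8 libraries, members aside, were Lox, Fbn1, Micall1, Adamts5 and Pdzrn3, with Pearson r from 0.995 to 0.999. Lox codes for a collagen crosslinking enzyme and Fbn1 for fibrillin, itself 1 of the 20 markers. The 8 points share their libraries and 6 of them come in replicate pairs. Fbn1 in 32 was at 16.2% of R1 and Meg3 at 47.2%, and in 16-6 they were at 238.3% and 139.2%. In the first library of 32, where the markers were lowest at a summed 393 FPKM, Meg3, Rian and Mirg were at 72.7 FPKM, 120.8 FPKM and 15.3 FPKM. What the feeder cells contributed to the levels of Meg3 and Rian was not tested.

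The rows most like Dlk1 were Adam8, Xdh, Ptgir, Rarres2 and Cd34, with Pearson r from 0.994 to 0.997. Among the fibroblast markers, Lum and Dcn, which code for small proteoglycans of the matrix, ranked 6th and 10th of 13692 rows with r of 0.993 and 0.992. Dcn was at 216.5 and 204.0 FPKM in R1, 32.9 and 33.3 FPKM in 16-6, 0.605 and 0.89 FPKM in 32, 11.1 FPKM in S8 and 11.0 FPKM in T2. Dcn was thus at 15.7% of R1 in 16-6, where Dlk1 was at 35.6%, and at 0.356% in 32, where Dlk1 was at 4.22%. Within the list the direction varied, since 16 of 20 markers had a higher value in 16-6 than in R1, where Dlk1 was lower. The part of feeder RNA in the Dlk1 difference was not tested. Dio3 had the opposite sign, with an r of -0.81 with Meg3 and -0.38 with Dlk1.

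**Figure D5:**
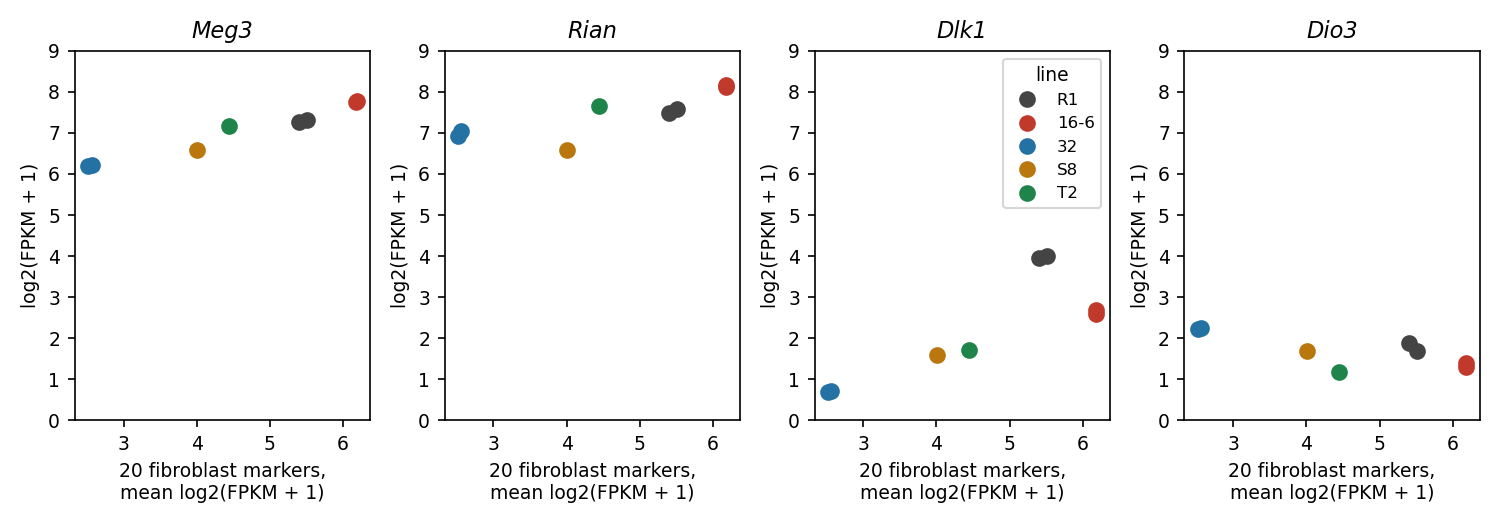
log2(FPKM + 1) of Meg3, Rian, Dlk1 and Dio3 against the mean log2(FPKM + 1) of the 20 fibroblast markers, 1 point per library. The 32 libraries lie at the left at 2.52 and 2.56, with the lowest Meg3 and Dlk1 and the highest Dio3, and Dlk1 of R1 lies above that of 16-6 although the markers of 16-6 were higher.

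Most other rows of the domain carried little signal, 6430411K18Rik being the exception given with Rtl1. Between Begain and the end of Dio3 there were 69 rows, of which 60 were short RNA rows of 30 to 124 bases, 58 of them microRNA hairpins. Of these 60, 36 were at 0 in every library. All 60 together held 2.6 to 14.1 fragments per library, with 2.6 and 3.4 in 32 and 14.1 and 10.3 in 16-6. RNA had been enriched by oligo(dT) and cut to about 200 bases, so mature microRNAs were not measured, and such rows can hold only pieces of longer RNA. The microRNAs shown above could therefore not be followed in these files.

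Genes on either side of the imprinted domain were also followed. Of 12 flanking genes, 0 passed the threshold in limma in 16-6 or in 32 against R1, 2 passed in S8 and 2 in T2, where the shares of all rows were 7.11%, 9.77%, 16.7% and 10.5%. These were Yy1, a zinc finger factor, which was higher by 1.19 ± 0.122 (SE) in S8 and 1.15 ± 0.122 in T2 (limma, adjusted p = 0.000823 and 0.00146), Dync1h1, the dynein heavy chain, at -1.06 ± 0.0502 in S8 (limma, adjusted p = 0.000124), and Mok, a kinase listed as Stk30 in the files, at -1.02 ± 0.12 in T2 (limma, adjusted p = 0.00195).

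Of 19 genes that set or keep the imprint of the domain, all were at or above 1 FPKM in every library. ZFP57 protects the methylated intergenic control region, and Zfp57 was at 165.2 and 162.1 FPKM in R1, 78.9 and 74.7 FPKM in 16-6, 147.0 and 163.9 FPKM in 32, 98.4 FPKM in S8 and 57.1 FPKM in T2. It was lower than in R1 in 16-6 by -1.08 ± 0.0632 (SE) and in T2 by -1.50 ± 0.0774 (limma, adjusted p = 0.000297 and 0.000259). Among the iPSC lines, T2 and 16-6 were lowest for Zfp57 and highest for Meg3, while R1 was high for both. A link between these levels was not tested. Dppa3, whose protein keeps methylation of the domain from spreading during reprogramming, was at 50.4 and 55.7 FPKM in R1, 98.7 and 106.7 FPKM in 16-6, 248.6 and 230.5 FPKM in 32, 70.3 FPKM in S8 and 63.8 FPKM in T2. It was higher in 32 than in R1 by 2.16 ± 0.0732 (limma, adjusted p = 4.6e-05), and was the only gene of the list to pass in 32. In S8, Tet2, which codes for an enzyme that oxidises methylated DNA, was lower by -2.08 ± 0.0619, and Dnmt3b, a DNA methyltransferase gene, was higher by 1.77 ± 0.0825 (limma, adjusted p = 6.5e-05 and 0.000122). Tet1, of the same family as Tet2, passed as lower too (limma, adjusted p = 6.67e-05). In T2 these genes passed in the same directions, with Tet2 at -1.40, Tet1 at -1.13 and Dnmt3b at 1.74. In all, 5 of the 19 passed in S8, of which 3 were higher, and 6 passed in T2, of which 3 were higher, while 16.7% and 10.5% of all rows passed in these lines.

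Genes that work with the coding members were counted in the same way. Of 11 Notch receptors, ligands and targets tested, to which Dlk1 is related, 0 passed in limma in 32 against R1 (9.77% of all rows), and 2 each in 16-6, S8 and T2 (7.11%, 16.7% and 10.5% of all rows). In 16-6 these were Notch4 at -1.50 ± 0.0774 (SE) and Dll1 at -1.04 ± 0.0725 (limma, adjusted p = 0.000218 and 0.000447). Of 5 genes of thyroid hormone handling tested out of 8, only the receptor gene Thra passed, in 32 at -1.79 ± 0.0912 against R1 (limma, adjusted p = 0.000144), the line in which Dio3 was highest. Thra was at 9.62 and 10.9 FPKM in R1 and at 2.24 and 2.27 FPKM in 32. Of 3 relatives of Rtl1 tested out of 6, Peg10, another retrotransposon-derived imprinted gene, was lower in S8 by -1.28 ± 0.0679 and Ldoc1 higher by 1.69 ± 0.156 (limma, adjusted p = 0.000152 and 0.000599). None of the 3 passed in the other lines against R1. The shares of all rows given above, 9.77% in 32 and 16.7% in S8, apply to these lists too.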

How the data were processed

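RNA-seq libraries of 5 lines were assigned to lines by the cell line and title given in the labels. The authors aligned paired reads with TopHat 2.0.4 to mm9 and its UCSC gene models, used only reads that aligned uniquely, and deposited FPKM with confidence limits from Cufflinks. Per the labels the version was Cufflinks 2.0.0, and the paper names a later one and calls the unit RPKM. The Cufflinks options are not given in the sources used here. Deposited FPKM summed to far more than 1000000 per library, so all values were divided by 12725.7 to bring the median library to a total of 1000000, which left ratios as they were. Fragment numbers were inferred from the confidence limits, by squaring 2 × FPKM divided by the half-width of the interval, and cover counting error only; they are exact only where sampling is the sole uncertainty. S8 and T2, with 1 library each, were assumed to vary like the others.

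The 13693 rows that reached 1 FPKM in some library were fitted as log2(FPKM + 1) with limma 3.58.1 (trend) in R 4.3.3, with 8 libraries in 5 groups and 3 residual degrees of freedom. P-values were adjusted by Benjamini-Hochberg over all rows tested. The fit was tested on simulated data. Nothing in the labels says how replicates of a line were grown, so p-values measure the spread between these libraries, while the study calls them biological. The 7 genes and all lists were chosen with earlier results of these data known. Named beside the 7 genes were the 5 rows most correlated with Meg3 and with Dlk1, up to 3 genes of each list with the largest difference past the threshold, and Dppa3 and Zfp57 in any case. Lum, Dcn and the row within Rtl1 were chosen after their values were seen. Same-numbered replicates did not deviate together (correlations of -0.10, 0.00 and 0.03), so they were not treated as pairs. Sequences are from RefSeq (GRCm38.p6), placed in mm9 by exact match. Other tools were Python 3.11.15, pandas 2.3.3 and numpy 2.4.6. Alternatives were another pseudocount, other filters, quantile normalization, no fold minimum, no trend, leaving out each replicate, the 6 replicated libraries alone, a replicate block, and an upper quartile scaling.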

Additional observations from a re-analysis of the deposited data

Results flagged for a closer look

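Differences from R1 that were not equal in 2 iPSC lines are given here with the limma test of the difference itself, which is the direct contrast of both lines. The comparisons share the R1 libraries and several share an iPSC line, so they are not independent. Between 32 and 16-6, the differences of Meg3 (-1.07 and 0.48) and Rian (-0.54 and 0.60) from R1 had opposite signs, and the lines differed by -1.55 and -1.15, while for Dlk1, lower in both, they differed by -1.95. Between S8 and 16-6, Meg3 (-0.71 and 0.48) and Rian (-0.94 and 0.60) had opposite signs, with differences of -1.18 and -1.55, and Dlk1 differed by -1.04. Between T2 and 32, Dio3 (-0.59 and 0.44) had opposite signs and differed by -1.04, and Dlk1, lower than in R1 in both, differed by 1.03. Between T2 and S8, Rian (0.12 and -0.94) had opposite signs and differed by 1.06. The adjusted p-values of limma ran from 1.19e-05 for Meg3 between 32 and 16-6 to 0.00261 for Rian between T2 and S8. S8 and T2 had 1 library each.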

How the results depend on the processing

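Of the log2 differences of the 7 genes, 10 changed sign under some alternative, those of Rtl1, Mirg, Dio3, Rian and Begain among them, with an adjusted p of at least 0.223 in limma there, and no difference past the threshold did. With no fold minimum, the number of the 7 genes past an adjusted p of 0.05 was 4 in 16-6, 6 in 32, 5 in S8, 2 in T2 and 4 in the iPSC mean, each against R1, and 7 in 32 and 6 in S8 against 16-6, 3 in T2 against 16-6, 4 in S8 and 5 in T2 against 32, and 3 in T2 against S8. Over all rows and in the same order, this rule called 55.6%, 61.5%, 66.7%, 57.9% and 65.0% against R1. For the other comparisons it called 60.4%, 66.6%, 52.4%, 60.8%, 52.3% and 34.5%. The counts of the 7 genes were not tested against these shares. With the fold minimum and a pseudocount of 0.1, the number of the 7 genes past the threshold was 4 in 32 against R1 and 6 in 32 against 16-6. It was 1 in T2 against 16-6 and 1 in S8 against 32. In these comparisons 16.5%, 14.8%, 12.8% and 18.0% of all rows passed. With quantile normalization it was 2 in S8 against R1, as Rian passed too, with 15.2% of all rows. Dlk1 fell short of the fold minimum in S8 against 16-6 with quantile normalization (-0.84) and without the second 16-6 library (-0.99), and in T2 against 32 with quantile normalization (0.79). The gap between non-coding and coding genes was 4.50 in R1, 5.59 in 16-6, 5.55 in 32, 5.14 in S8 and 5.70 in T2 with the pseudocount of 0.1. It was 4.31, 5.24, 4.38 and 4.24 in R1, 16-6, 32 and S8 with quantile normalization, and 3.49, 4.87, 4.34, 4.09 and 4.96 in R1, 16-6, 32, S8 and T2 without Rtl1. The causes were not tested. In the replicated lines, the replicate block gave 1 of the 7 genes in 16-6 and 2 in 32 against R1 and 3 in 32 against 16-6, as without pairing, and changed no call. Upper quartile scaling moved the mean FPKM by at most 5.94%. Depth limits Rtl1, Dio3 and Begain, with 26 to 118.6 implied fragments per library, and Dlk1 in 32, with 31.6 and 33.1.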
